A study of Mus musculus with 8 samples.

Results

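The genes described here build the elastic fibre of the newborn mouse lung. They are Eln, Fbn1, Fbn2, Fbln5, Efemp2, Emilin1, Mfap2, Mfap4, Mfap5 and Ltbp4, chosen by name. All 10 were found among the 20842 genes that the array annotation names, read by 15 array features. RNA came from lungs of C57Bl/6J pups kept in a chamber with 20% oxygen from postnatal day 0 to day 3. The 4 control samples were wild type. The other 4 were labelled Fgf10 +/-, the notation for a heterozygote of fibroblast growth factor 10, a mesenchymal signal needed for lung formation. The sources used here do not give the kind of Fgf10 allele, the litters, the sex, or whether lungs were pooled. Nothing says that the samples of a group came from separate animals, so p-values measure only the spread between these samples, which may be technical. Each sample gave one Cy3-labelled array, and the values are log2 signals.

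Elastic fibres let the lung stretch and recoil. Cells first lay down microfibrils, bundles of fibrillin with associated glycoproteins, and tropoelastin, the soluble product of Eln, is then brought onto this scaffold and crosslinked by lysyl oxidases. In the newborn mouse lung, myofibroblasts deposit elastin at the tips of the growing septa that divide the air spaces, and smooth muscle and fibroblasts do so in airway and vessel walls.

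Several facts of the whole set touch these genes. The wild-type mean of the Fgf10 signal, a check of the labels, was 7.46 ± 0.40 (SD, n = 4). The mean of the 4 labelled Fgf10+/- was 7.95 ± 0.32 (SD, n = 4), so the signal was not lower there (two-sided exact permutation p = 0.0857). Neither the kind of allele nor whether the feature lies in the part of Fgf10 that it alters is given in the sources used here. The signal can thus neither bear out nor refute the labels. Every direction therefore rests on the labels. The 6 lung epithelial markers gave strong signals in all 8 libraries, with a mean of 13.61 to 13.84 in the wild type and 13.33 to 13.45 in the libraries labelled Fgf10+/-. All 6 had a lower mean there, with a median difference of -0.41, 4 of them at an unadjusted limma p under 0.05, as had 6.29% of all genes. The 2 brightest, differing by only -0.0024 and -0.034, lay close to the array maximum of 15.99 in every library, so their direction says little. Wild-type replicate 4 stood apart by genes of cartilage, with a mean of 7.67 against at most 3.78 in the other 7 libraries, and of skeletal muscle, 7.77 against at most 5.03. In RNA of the bulk lung, a change in the number of cells of a type and a change in RNA per cell cannot be told apart.

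No elastic fibre gene passed the test over all genes (limma, Benjamini-Hochberg adjusted p under 0.05), and neither did any other gene: 0 of 20842 were called, or 0%. The 3 genes with the highest differences were Mfap5, Eln and Fbn1, at 1.59-fold, 1.49-fold and 1.30-fold the wild-type signal. They were the 3 of 10 that were higher at an unadjusted limma p under 0.05, as were 4.74% of all genes. For 2 of 10, Mfap5 and Fbn1, every library labelled Fgf10+/- lay above every wild-type one, a pattern found in 2.99% of all genes. A higher mean was seen in 9 of 10, against 49.8% of all genes. The median log2 difference over the 10 was 0.22, while the median over all 20842 genes was -0.0012. The median over the members was 0.13 without wild-type replicate 1 and 0.12 over all 15 features taken singly. These genes were put together with earlier results of the same data known, so these counts describe them and are no separate evidence.

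**Figure D1:**
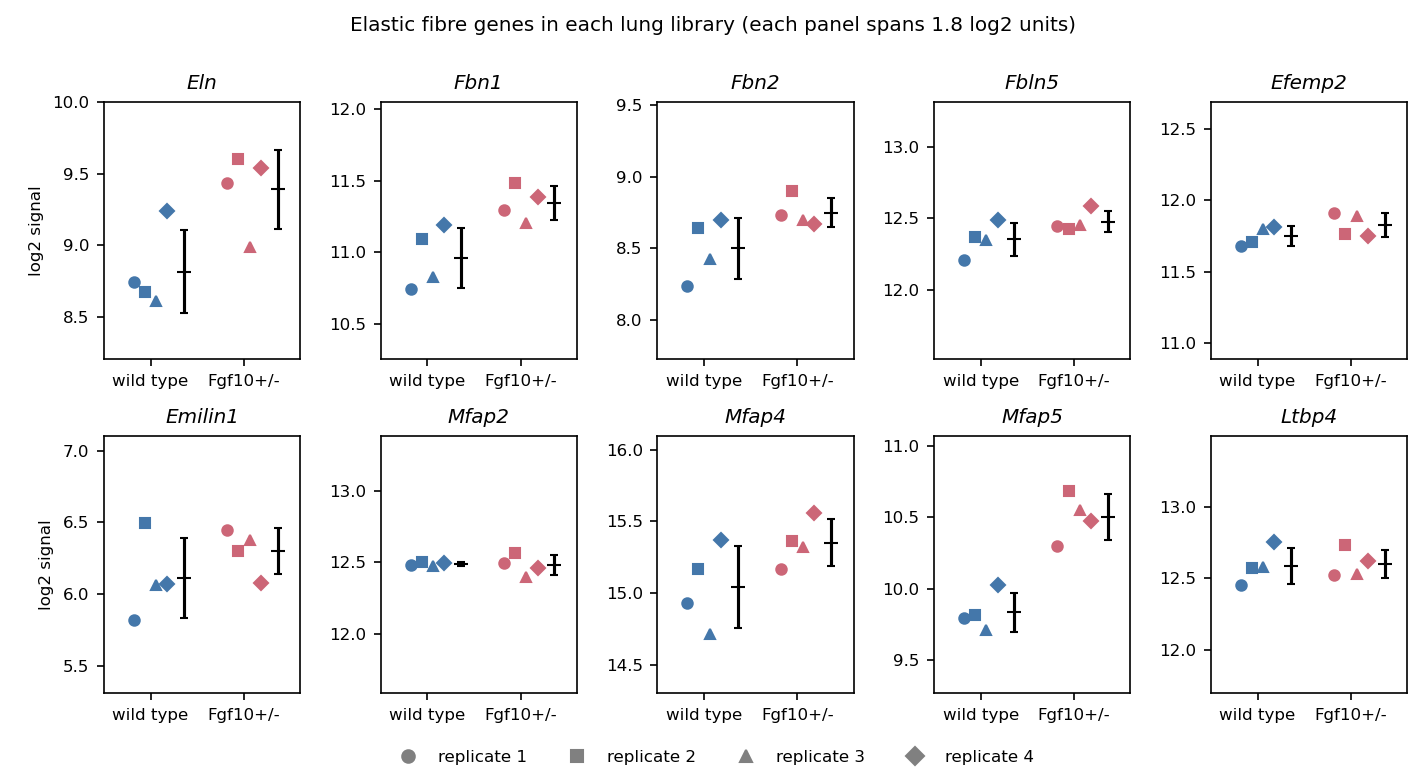
Log2 signal (vertical axes, each spanning the same range) of the 10 elastic fibre genes in 4 wild-type libraries (blue) and 4 labelled Fgf10+/- (red), with the symbol giving the replicate and the black bar the mean and SD of each group. The groups are apart for Fbn1 and Mfap5, nearly apart for Eln, and level for Mfap2 and Ltbp4.

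Eln encodes tropoelastin, the rubber-like core of the fibre. Its log2 signal was 8.74, 8.67, 8.61 and 9.24 in wild-type replicates 1 to 4, and 9.44, 9.60, 8.99 and 9.54 in replicates 1 to 4 of the libraries labelled Fgf10+/-. Replicate 3 of the latter lay below wild-type replicate 4, and the other 3 lay above all wild-type values. The log2 difference was 0.58 (SE 0.19), a fold of 1.49 with a 95% interval of 1.10 to 2.03 (two-sided exact permutation p = 0.0571; limma adjusted p = 0.316, which does not pass). It was 0.72 without wild-type replicate 4. Eln had 1 feature, so no second reading stands beside it.

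The 2 fibrillins differed in how far the groups were apart. Fbn1, the main fibrillin of adult microfibrils, had log2 signals of 10.74, 11.09, 10.83 and 11.19 in the wild type and 11.29, 11.48, 11.21 and 11.38 in the libraries labelled Fgf10+/-. The groups did not overlap, though wild-type replicate 4 came close to the lowest of the other group. The log2 difference of 0.38 (SE 0.13) corresponds to a fold of 1.30 with a 95% interval of 1.05 to 1.61 (exact permutation p = 0.0286, two-sided, which is the minimum over 70 assignments; limma adjusted p = 0.346). Fbn2, the fibrillin prominent in developing tissue, read 8.24, 8.64, 8.42 and 8.70 against 8.73, 8.90, 8.70 and 8.67 by its brighter feature. Its groups overlapped, and the log2 difference of 0.25 had a 95% interval of -0.05 to 0.55 (limma adjusted p = 0.547). The second Fbn2 feature, in a fit of every feature on its own, gave 0.02 (95% interval -0.37 to 0.41), and the mean of both features gave 0.13.

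Mfap5, also called MAGP-2, is a small glycoprotein of microfibrils that binds fibrillin. Among the 10 genes it had the highest difference and the smallest p, with log2 signals of 9.79, 9.81, 9.71 and 10.03 in the wild type and 10.30, 10.68, 10.55 and 10.47 in the libraries labelled Fgf10+/-. The lowest of the latter exceeded the highest wild-type value by more than either group's SD (0.14 and 0.16). The log2 difference was 0.66 (SE 0.12), a fold of 1.59 with a 95% interval of 1.30 to 1.93 (two-sided exact permutation p = 0.0286; limma adjusted p = 0.155). By limma p it ranked 88 among the 20842 genes. With each library left out in turn, the difference stayed between 0.60 and 0.73. Its call depended on the variance model and on which genes were tested. Mfap5 passed with genes below the 50th percentile of mean signal left out (limma adjusted p = 0.0210; 1 of 10 members, against 0.892% of the genes tested called higher), and Mfap5 and Fbn1 passed with a variance trend and robust settings (limma adjusted p = 0.000938 and 0.0478; 2 of 10, against 0.710% called higher).

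The paralog Mfap2, or MAGP-1, read alike in all libraries. Wild-type values were 12.48, 12.50, 12.47 and 12.49, and those labelled Fgf10+/- were 12.50, 12.57, 12.40 and 12.46. Its log2 difference was -0.0056 with a 95% interval of -0.21 to 0.20, and its sign turned to 0.022 with further quantile normalization. A second, dimmer Mfap2 feature gave 0.03 (95% interval -0.24 to 0.29). Mfap4, a fibrinogen-related glycoprotein that binds tropoelastin and fibrillin, had signals of 14.93, 15.16, 14.71 and 15.37 against 15.17, 15.36, 15.32 and 15.56. Its groups overlapped, with a log2 difference of 0.31 and a 95% interval of -0.07 to 0.69 (limma adjusted p = 0.550). These values lie close to the array maximum of 15.99, and whether the scale is compressed there was not tested.

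The proteins that carry tropoelastin onto microfibrils gave small differences. Fbln5, fibulin-5, which binds tropoelastin and cell-surface integrins, had log2 signals of 12.21, 12.37, 12.35 and 12.49 in the wild type and 12.44, 12.42, 12.45 and 12.59 in the libraries labelled Fgf10+/-. Its difference was 0.12 with a 95% interval of -0.12 to 0.36 (limma adjusted p = 0.725). A second, dimmer Fbln5 feature, below the median gene signal of 5.78, scattered from 3.25 to 5.36. Its difference of 0.13 had a 95% interval of -0.94 to 1.20. Efemp2, fibulin-4, which recruits lysyl oxidase to tropoelastin, ran from 11.68 to 11.82 in the wild type and from 11.75 to 11.91 in the other group, a difference of 0.08 with a 95% interval of -0.15 to 0.30. For both fibulins the groups overlapped, and the 95% intervals ended at a fold of 1.28 for Fbln5 and 1.23 for Efemp2.

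Ltbp4, a latent TGF-beta binding protein that works with fibulin-5 in elastin assembly, did not differ beyond its spread. Its brightest feature read 12.45, 12.57, 12.58 and 12.76 in the wild type against 12.52, 12.73, 12.53 and 12.62, a log2 difference of 0.01 with a 95% interval of -0.24 to 0.26. The second feature gave 0.07 and the third, dim at a mean of 3.98, -0.26 (95% interval -0.76 to 0.23). Emilin1, a glycoprotein at the border between elastin and microfibrils, had wild-type signals of 5.82, 6.49, 6.06 and 6.07, and signals of 6.44, 6.30, 6.37 and 6.08 in the libraries labelled Fgf10+/-. Its difference of 0.19 had a 95% interval of -0.19 to 0.56 (limma adjusted p = 0.732). Wild-type replicates 1 and 2 held the lowest and the highest of all 8 Emilin1 values, so the wild-type spread covered the other group.

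**Figure D2:**
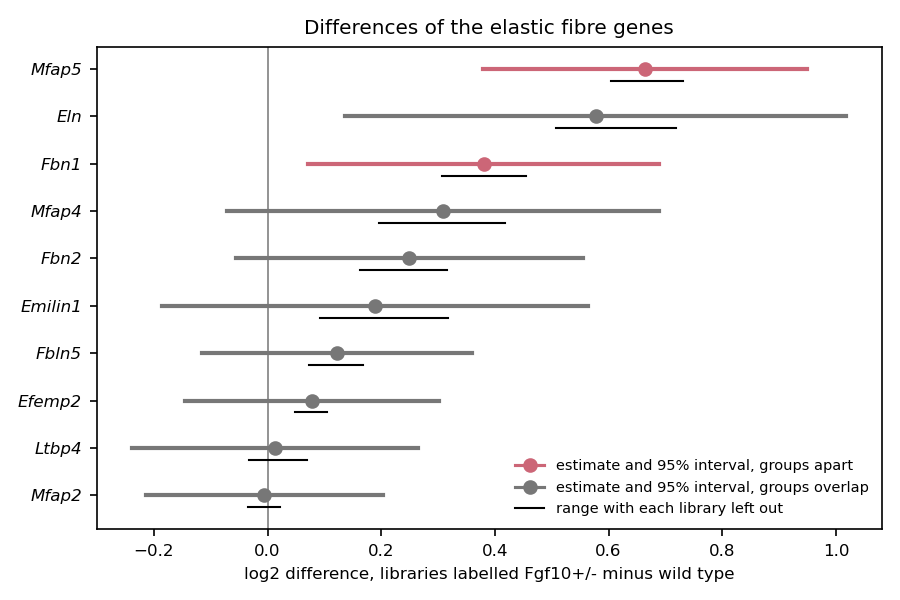
Log2 difference of each elastic fibre gene between the libraries labelled Fgf10+/- and the wild type (point) with limma's 95% interval (thick line) and the range of the difference with each of the 8 libraries left out in turn (thin black line). The intervals of Mfap5, Eln and Fbn1 lie above 0, and those of the other 7 genes include it.

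Many members moved together in single libraries. In wild-type replicate 1 all 10 genes lay below their own mean over the 8 libraries, a mean that also holds the group difference. Within the wild type alone, replicate 1 held the lowest value of 6 of the 10. How often all genes show such patterns was not counted. Wild-type replicate 4 held the highest wild-type value of 8 of the 10, and replicate 2 of the libraries labelled Fgf10+/- the highest value overall of 5. The mean log2 signal over the 10 genes was 10.71, 10.90, 10.76 and 11.02 in wild-type replicates 1 to 4 and 11.08, 11.18, 11.04 and 11.11 in the other group, without overlap between the groups. Without wild-type replicate 4, which carried the cartilage and muscle signal, 9 of 10 differences were higher, with Fbn1 at 0.46 and Mfap4 at 0.42. Without wild-type replicate 1 all 10 were lower, with Fbn2 at 0.16, Emilin1 at 0.09 and Fbln5 at 0.07. Emilin1 was at 0.32 without wild-type replicate 2, Mfap4 at 0.20 without wild-type replicate 3 and Efemp2 at 0.05 without replicate 1 labelled Fgf10+/-. The count at an unadjusted p under 0.05 ranged from 2 to 4 with each library left out.

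Likeness to Eln was ranked by Pearson correlation over the 8 arrays among the 10420 other genes above the median mean signal. The 5 genes most like it were Dazap1, which encodes an RNA-binding protein (r = 0.980), Phex, a membrane endopeptidase gene (0.957), Rcn3, a calcium-binding protein of the endoplasmic reticulum (0.957), Hdlbp, an RNA-binding protein (0.956), and Picalm, a clathrin assembly protein (0.954). Fbn1 ranked 93 (r = 0.890), Mfap5 275 (r = 0.823), Mfap4 474 (r = 0.771), Fbn2 595 (r = 0.741) and Fbln5 750 (r = 0.707). The remaining members were less like Eln: Ltbp4 ranked 1804 (r = 0.529), Mfap2 2906 (r = 0.351), Efemp2 3134 (r = 0.315) and Emilin1 3981 (r = 0.185). These values describe 8 arrays of 2 groups, so a gene that differs between the groups as Eln does is ranked high by that alone.

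Promoter sequences from RefSeq (GRCm38.p6) were held for 6 of the 10 genes: Fbn1, Mfap2, Emilin1, Ltbp4, Fbln5 and Efemp2, in 12 windows. Fbn1 and Mfap2 are shown because their products are partners in the same microfibril while their signals differed by 0.38 and -0.0056 between the groups. Each sequence is the 250 bases before an annotated start, 5′ to 3′ on the gene's strand, with capitals marking the GC box GGGCGG, the site of Sp-family factors. The Fbn1 window is chr2:125506439-125506688 on the minus strand, and the Mfap2 windows are chr4:141010431-141010680 and chr4:141010174-141010423 on the plus strand.
Fbn1: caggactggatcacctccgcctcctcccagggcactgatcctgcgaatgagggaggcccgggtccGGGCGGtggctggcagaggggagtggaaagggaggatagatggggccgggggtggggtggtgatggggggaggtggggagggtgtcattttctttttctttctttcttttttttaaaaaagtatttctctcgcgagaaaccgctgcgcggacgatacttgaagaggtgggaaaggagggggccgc
Mfap2, first window: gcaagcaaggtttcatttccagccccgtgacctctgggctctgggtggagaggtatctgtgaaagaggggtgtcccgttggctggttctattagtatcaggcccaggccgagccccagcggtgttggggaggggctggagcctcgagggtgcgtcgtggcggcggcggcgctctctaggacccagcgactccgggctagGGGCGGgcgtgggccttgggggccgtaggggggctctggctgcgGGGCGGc
Mfap2, second window: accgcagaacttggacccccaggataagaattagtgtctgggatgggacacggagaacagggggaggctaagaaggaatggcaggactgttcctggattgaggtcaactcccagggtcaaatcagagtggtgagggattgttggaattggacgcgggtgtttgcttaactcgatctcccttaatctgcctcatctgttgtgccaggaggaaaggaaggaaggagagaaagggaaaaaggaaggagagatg

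The Fbn1 window held 1 GC box, which began 185 bases before the start. The first Mfap2 window held 2, at 51 and 7 bases before it, and the second held 0. GC boxes on either strand were found in 9 of the 12 windows, of 5 genes, and in 32.7% of all 32851 windows of the same length. The 12 windows ran from 49.6% to 79.2% G and C, against a median of 52.4% over all windows. The part of this base content in the GC box count was not tested. A TATAAA box was in 0 of 12 (12.4% of all), CCAAT in 3 of 12 (33.9%), the SMAD letters CAGAC in 4 of 12 (42.2%), the TEAD letters CATTCC in 1 of 12 (12.6%) and a CArG box in 0 of 12 (1.47%), each searched on both strands. A CArG box can contain TATAAA or CCAAT, and no other motif searched contains another. Windows of 1 gene can overlap each other, and a match is only a match of letters.

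Beyond the 10 genes, 70 further genes of elastic fibre assembly, attachment and breakdown were measured in 8 lists. None passed over all genes (0 of 70; 0%). The mean was higher in the group labelled Fgf10+/- for 50 of 70 and lower for 20, with a median log2 difference of 0.16. At an unadjusted limma p under 0.05 there were 9 higher (4.74% of all genes) and 1 lower (6.29%). The groups did not overlap for 6 that were higher (2.99%) and 1 that was lower (4.40%). With a variance trend and robust settings 5 of the 70 passed, all higher, against 0.710% of all genes: Hmcn1 (limma adjusted p = 0.0123), Fbln2 (0.0227), Adamtsl2 (0.0295), Bgn (0.0310) and Loxl2 (0.0353).

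Of the 9 genes for crosslinking and copper supply, 7 had a higher mean, with a list median of 0.20 (0.12 without wild-type replicate 3). Loxl2, a lysyl oxidase-like enzyme, differed by 0.36 (SE 0.12, limma adjusted p = 0.310) with groups that did not overlap. Loxl1, the family member most closely tied to elastin renewal, had 10.85 ± 0.18 (SD, n = 4) in the wild type and 11.11 ± 0.05 (SD, n = 4) in the other group, a difference of 0.25 (adjusted p = 0.482). Lox itself, named after its values were seen, differed by 0.20 (SE 0.24), and only replicate 1 of the libraries labelled Fgf10+/- was high, at 7.81 against 6.72 to 6.92 in the other 3 and 6.63 to 6.97 in the wild type. Without that library the Lox difference was -0.04.

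Among other fibulins and EMILIN-type genes, 7 of 9 had a higher mean, with a median of 0.14 (0.06 without wild-type replicate 3 and 0.29 without replicate 3 labelled Fgf10+/-). Hmcn1, the giant matrix protein hemicentin-1, differed by 0.70 (SE 0.18, adjusted p = 0.220) and Fbln2, fibulin-2, by 0.48 (SE 0.14, adjusted p = 0.259), both without overlap between the groups. Latent TGF-beta binding proteins and TGF-beta ligands had a median of 0.29, with 5 of 6 higher. Ltbp1 differed by 0.40 (adjusted p = 0.451; 0.25 without replicate 1 labelled Fgf10+/-) and Tgfb3 by 0.29 (adjusted p = 0.463), and for both the groups overlapped.

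The single pathway gene with the smallest p was Adamtsl2, which encodes an ADAMTS-like protein that binds fibrillin-1. Its log2 signals were 5.25, 5.45, 5.15 and 5.10 in the wild type and 6.01, 6.41, 6.28 and 6.01 in the libraries labelled Fgf10+/-. The groups were well apart, with a difference of 0.94 (SE 0.14; two-sided exact permutation p = 0.0286; limma adjusted p = 0.0813, which does not pass). It passed with genes below the 25th percentile of signal left out (limma adjusted p = 0.0434), where 0.0512% of the genes tested were called higher. The other 7 measured genes of that list were closer to 0, the list median being 0.04 (0.15 without wild-type replicate 2), and the runner-up by p, Adamtsl3, differed by 0.48 (SE 0.45) near the floor, or 0.16 without wild-type replicate 2 and 0.75 without replicate 4. Adamtsl6 is an older name of Thsd4, which the list also holds, so 8 of 9 names were measured.

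All 8 genes listed as microfibril-associated matrix proteins had a higher mean, with a median of 0.36 (0.24 without wild-type replicate 2). The list holds Mfap3 (difference 0.08) and Mfap3l (0.47, near the floor at a wild-type mean of 3.38), which share the name of the members. Whether the products of all 8 lie in microfibrils was not tested. Bgn, the small proteoglycan biglycan, had 9.23 ± 0.12 (SD, n = 4) against 9.66 ± 0.11 (SD, n = 4), a difference of 0.43 (adjusted p = 0.230) without overlap. Dcn, decorin, differed by 0.59 (SE 0.19, adjusted p = 0.316) with overlap. Integrins and the elastin receptor complex had a median of -0.01 (0.0098 without wild-type replicate 3), with 5 of 11 higher. Itgb6, an integrin beta chain of epithelium, differed by 0.21 (adjusted p = 0.520), and Neu1, the sialidase of the elastin receptor complex, by -0.35 (SE 0.10, adjusted p = 0.267), each without overlap between the groups. With all features averaged the Itgb6 difference was 0.11.

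Elastases had a median of 0.21, with 6 of 10 higher, but 0.02 without wild-type replicate 3. Ctsk, cathepsin K, differed by 0.44 (adjusted p = 0.403), while Mmp12, macrophage elastase, differed by 0.46 (adjusted p = 0.447) at a wild-type mean of 2.16, below the median feature of the array (3.47). When all Mmp12 features were averaged that difference was 0.10. Elastase inhibitors had a median of 0.16, with 6 of 9 higher (0.01 without replicate 1 labelled Fgf10+/- and 0.29 without replicate 4). Serpina1d, a mouse alpha-1 antitrypsin gene whose copies are nearly identical and may share signal, differed by 0.53 (adjusted p = 0.635; 0.86 without replicate 1 labelled Fgf10+/-) near the floor and by 0.0077 with all features averaged, and Timp2, a tissue inhibitor of metalloproteinases, by 0.16 (adjusted p = 0.658).

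**Figure D3:**
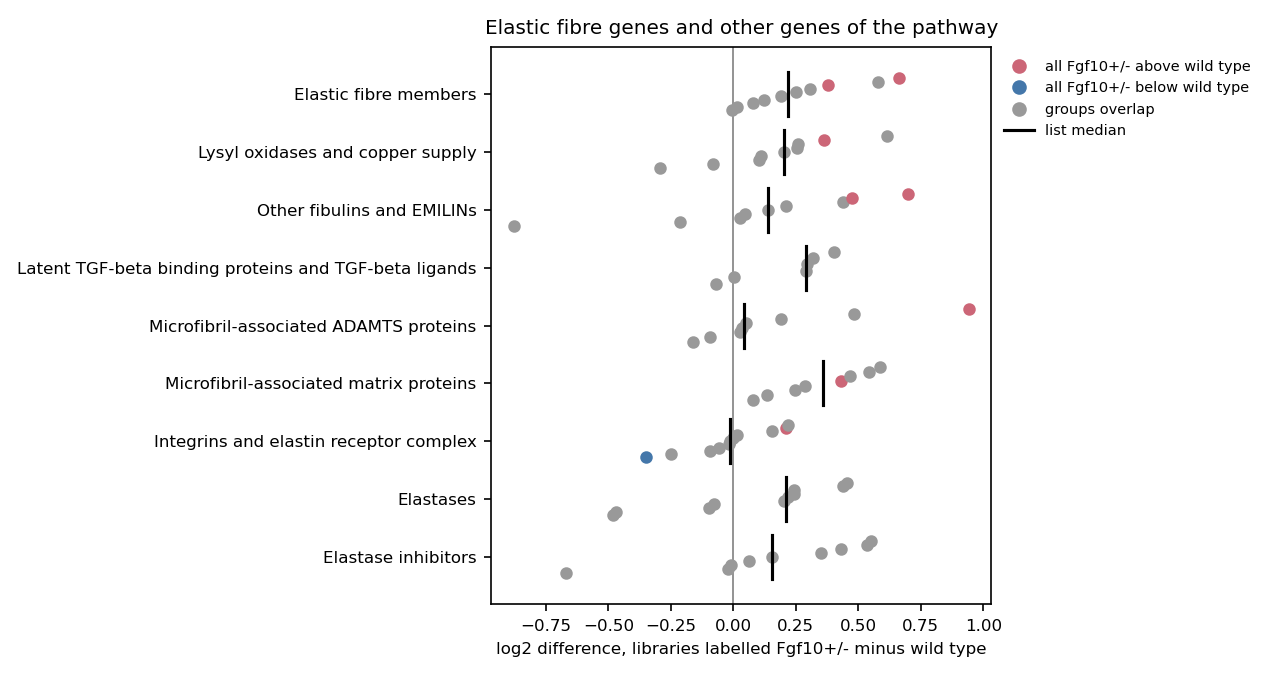
Log2 difference (horizontal axis) of the 10 elastic fibre genes (top row) and of the genes in 8 further pathway lists, 1 point per gene and a black bar at each list median, coloured where all 4 libraries labelled Fgf10+/- lie above (red) or below (blue) all 4 wild-type ones. The list medians run from -0.01 for integrins to 0.36 for microfibril-associated matrix proteins.

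In 3 marker lists of cells that make elastic fibres no gene passed, and the list means overlapped between the groups. At an unadjusted limma p under 0.05, 2 of 12 smooth muscle and myofibroblast markers were higher, as were 4.74% of all genes. So were 4 of 10 lung fibroblast and 2 of 10 adventitial fibroblast markers, and 0 were lower in each list (6.29%). In the same order, groups did not overlap for 3, 1 and 0 markers, all higher, Acta2 and Col1a2 among them (2.99%). Smooth muscle and myofibroblast markers had a median difference of 0.07 (0.02 without replicate 4 labelled Fgf10+/-), with 9 of 12 higher and a mean signal of 9.76 to 10.08 in the wild type against 9.89 to 10.10 in the libraries labelled Fgf10+/-. Within that list Acta2, smooth muscle actin, differed by 0.23 (adjusted p = 0.407) and Tgfbi by -0.22 (adjusted p = 0.660; -0.34 without replicate 4 labelled Fgf10+/-). Lung fibroblast markers had a median of 0.22 with 8 of 10 higher and a mean signal of 10.03 to 10.28 against 10.20 to 10.45, with the collagen genes Col1a2 at 0.35 (adjusted p = 0.346) and Col3a1 at 0.34 (adjusted p = 0.407). Adventitial fibroblast markers had a median of 0.16 (0.29 without wild-type replicate 4) with 7 of 10 higher and a mean signal of 9.02 to 9.35 against 9.29 to 9.46. Among them Cd34 differed by 0.12 (adjusted p = 0.768; 0.06 without wild-type replicate 1 and 0.18 without replicate 4), and Dcn is also in this list. The part of these cell types in the elastic fibre values was not tested.

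Other markers moved with the groups or with single libraries. All 11 measured cell cycle genes had a higher mean, with a median of 0.65, and their mean signal was 7.98 to 8.41 against 8.81 to 8.88, with Mki67 at 0.64 and Birc5 at 0.58. All 10 markers of alveolar type 2 cells were lower in mean, their median difference being -0.74 and their mean signal 11.88 to 12.07 against 11.24 to 11.41, among them Sftpb at -0.28 (-0.58 with all features averaged) and Sftpd at -0.52. All 10 heart muscle genes were lower, with a median of -0.83 and a mean signal of 7.98 to 8.22 against 7.16 to 7.46, among them Myh6 at -0.84 and Tnnt2 at -0.81. At an unadjusted limma p under 0.05, 10 of 11 cell cycle genes were higher (4.74% of all genes). At the same level 10 of 10 type 2 markers and 8 of 10 heart genes were lower (6.29%). The groups did not overlap for 10 cell cycle genes (2.99% of all genes higher), 9 type 2 markers and 5 heart genes (4.40% lower). None of the genes named here passed in the test over all genes (limma adjusted p from 0.146 for Myh6 to 0.392 for Sftpb). Their part in the elastic fibre values was not tested.

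Mesothelial markers had a median of 0.28 with 8 of 9 higher and a wide, overlapping mean signal of 6.81 to 7.58 against 6.29 to 8.38. That median was -0.02 without replicate 1 labelled Fgf10+/- and 0.86 without replicate 3, so single libraries set it. Msln differed by 0.26 (adjusted p = 0.768; 0.06 and 0.49 without the same libraries) and Krt19 by -0.41 (adjusted p = 0.289). Cartilage genes, of which 5 of 10 (Acan, Matn1, Matn3, Col9a1 and Comp) had means below the median feature, had a high mean signal in wild-type replicate 4 alone. Their median was -1.19 with 8 of 10 lower, or -0.30 without that library. Chad differed by -1.30 and Hapln1 by 0.06 between the groups. Pericyte markers had a median of 0.15 with 5 of 8 higher (0.09 without replicate 3 labelled Fgf10+/-), and endothelial markers one of -0.0040 with 5 of 10 higher. Fat genes were lower for 8 of 9 and skeletal muscle genes for 9 of 10, with medians of -0.76 and -1.06, or -0.22 and -0.32 without wild-type replicate 4. In that library fat genes had a mean of 6.27, against at most 5.09 in the others. The elastic fibre differences without this library, given above, were higher for 9 of the 10 genes. That follows from its elastic fibre values, the highest of the wild type for 8 of the 10. It says nothing of the part of these tissues in the elastic fibre values, which was not tested.

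**Figure D4:**
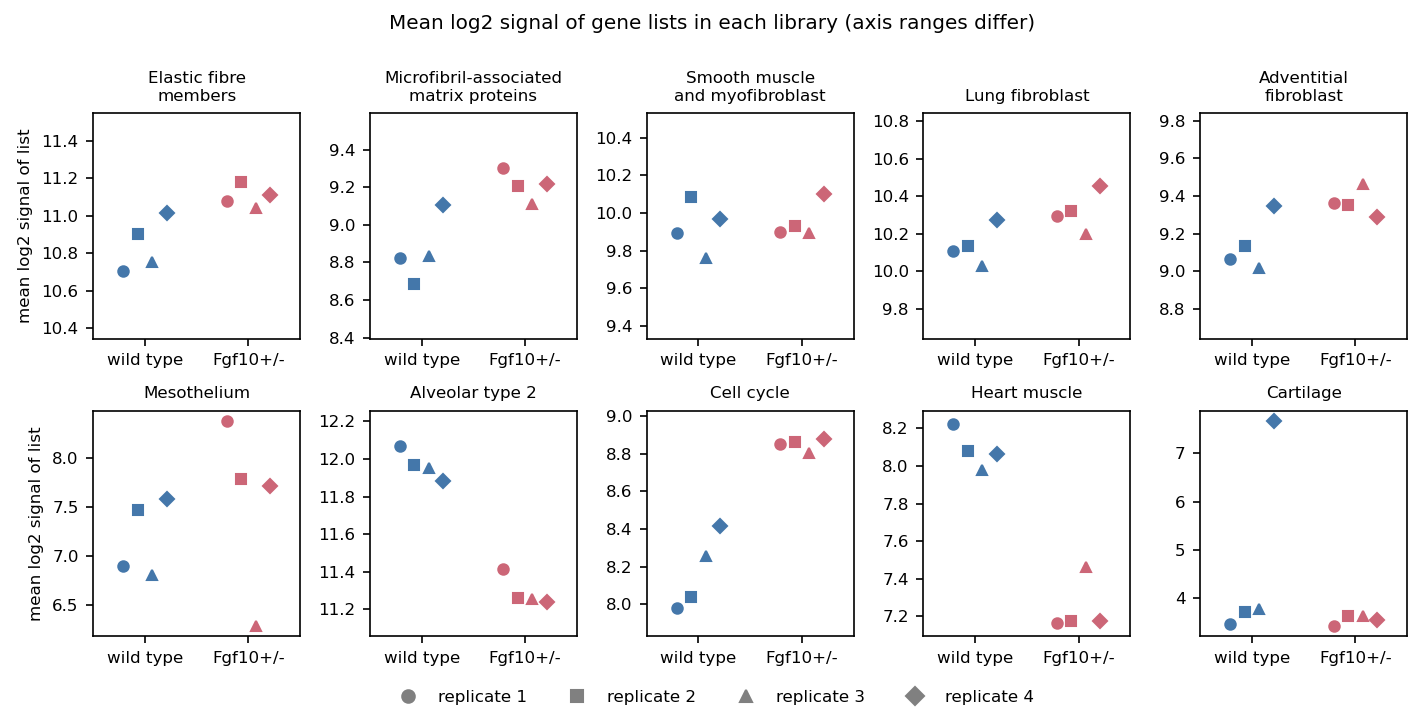
Mean log2 signal (vertical axes, whose ranges differ) of 10 gene lists in each of the 4 wild-type libraries (blue) and the 4 labelled Fgf10+/- (red), with the symbol giving the replicate. By list mean, the elastic fibre genes, the microfibril-associated matrix proteins and the cell cycle genes are higher in all libraries labelled Fgf10+/-. The gap is narrow for the elastic fibre genes (11.04 in replicate 3 labelled Fgf10+/- against 11.02 in wild-type replicate 4). It is narrower for the matrix proteins (9.11 against 9.10 in the same libraries). The list means of alveolar type 2 and heart genes are lower in all libraries labelled Fgf10+/-. Those of the smooth muscle and fibroblast lists overlap, and wild-type replicate 4 alone is high for cartilage.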

How the data were processed

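The deposited table holds log2 signals of 62976 features in 8 columns, brought to a common distribution by the authors, as the values show: sorted values differed by at most 0.0042 between arrays. The submitters' processing notes name limma. The sources used here do not state the background correction, flags, slides or scan dates, and batches were not examined.

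Features were named from the platform annotation (31465 with 1 symbol, 31511 without), with symbols updated through RefSeq accessions (29036 matched). After leaving out features with a blank, the brightest feature stood for each of 20842 genes. Groups came from the titles. The test was limma 3.58.1 in R 4.3.3 (lmFit, eBayes, two-sided, Benjamini-Hochberg, threshold 0.05). Exact permutation tests covered 70 assignments and are unadjusted. Intervals are limma's 95% intervals. With 4 arrays a group, their number limits the precision. The fit was tested on simulated data.

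The members and lists were chosen with earlier results of these data known. Named were all members, the 2 genes with the smallest p of each pathway list, and the 2 brightest of a marker list, except 5 marker lists given with no gene named beyond those of another list. Lox, Mfap3 and Mfap3l were named besides, after their values were seen. Alternatives were other feature choices, scalings, filters, variance models, array weights, a replicate block, a sex covariate (from Xist and 3 Y-linked genes) and left-out libraries. Figures used matplotlib 3.10.9.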

Additional observations from a re-analysis of the deposited data

Results flagged for a closer look

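A library lay far from the other 3 of its group in 6 of 64 groups of 4 checked, where chance gives about 1 in 20. The measure is the gap to the nearest library over the group's whole range, judged by Dixon's 95% critical value for 4 samples. For Fbln5 in the libraries labelled Fgf10+/- the ratio was 0.836, since replicate 4 (12.59) lay above the other 3 (12.42 to 12.45). For the mean signal of the elastase genes it was 0.909 in the same group, with replicate 4 low at 5.84 against 6.01 to 6.02. For the alveolar type 2 markers it was 0.895, with replicate 1 of that group at 11.41 against 11.24 to 11.26, and for the heart muscle genes 0.956, with replicate 3 at 7.46 against 7.16 to 7.18. In the wild type, replicate 4 was high for cartilage genes (ratio 0.922) and for skeletal muscle genes (0.916).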

How the results depend on the processing

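With all genes tested and no trend of the variance with signal fitted, 0 genes and 0 of 10 members passed (limma, unadjusted p under 0.05 for 2298 genes). Leaving out genes under the 25th percentile of mean signal gave 38 genes and under the 50th gave 288. The count was 414 under the variance trend with robust settings, 3 under array weights, and 0 to 1 with each library left out. Mfap5 passed with genes below the 50th percentile left out (adjusted p = 0.0210; 1 of 10 members, where 0.892% of genes were called higher). Mfap5 (adjusted p = 0.000938) and Fbn1 (adjusted p = 0.0478) passed with the variance trend and robust settings (2 of 10, where 0.710% were called higher). Over all alternatives the adjusted p ranged from 0.000938 to 0.340 for Mfap5, 0.0642 to 0.548 for Eln and 0.0478 to 0.598 for Fbn1. With each library left out in turn, 0 members passed, the median difference of the members ranged from 0.13 to 0.31, and the members at an unadjusted p under 0.05 numbered 2 to 4.

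All members but Mfap2 and Ltbp4 kept their sign in every alternative. Mfap2 turned to 0.011 with all features averaged, 0.022 with further quantile normalization, 0.0055 with array weights and 0.024 with both wild-type replicate 4 and replicate 3 labelled Fgf10+/- left out, and ranged from -0.034 to 0.023 with each library left out. Ltbp4 turned to -0.059 with all features averaged and -0.0052 with the sex covariate, and ranged from -0.033 to 0.069. Hapln1 ranged from -0.14 to 0.18. Of the other 31 genes named by rule, 12 passed under any of the settings that gave 38, 288 and 414 genes. Those settings tested 15631, 10421 and 20842 genes in the same order, with higher and lower calls counted together. Many of the 31 were picked by the smallest p, so the 12 are no separate evidence, and the cause was not tested.

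Whether the replicate numbers pair the samples is not known. Same-numbered deviations correlated at 0.11, 0.02, 0.02 and 0.08, and 2 of 4 numbers matched best with themselves. With no reference for such values, 4 weak correlations cannot decide it. With the replicate block 0 genes and 0 members passed, 3 members had an unadjusted p under 0.05, and the median difference was 0.22.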
